A study of Mus musculus with 2 samples.

Results

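The mRNAs of collagens and of the proteins that modify, fold, cut and cross-link them were followed in NIH3T3 cells, an established line of mouse embryonic fibroblasts. Members were chosen by gene symbol, with no filter on measured values, though earlier results of these data were known. They were every gene with a coding RefSeq transcript named as a collagen chain, together with the prolyl and lysyl hydroxylases, the collagen chaperone Serpinh1, the C-proteinase Bmp1, its enhancer Pcolce and the lysyl oxidases. This gave 55 of 18181 coding genes on the array, of which 40 were collagens and 15 were processing genes, measured by 56 transcripts because Col25a1 had 2. The array rows held no Lox and no Col6a3, which were not analysed here.

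Cells of both conditions were grown in medium with 10% bovine serum, and 1 of the conditions received 10 µM thapsigargin for 3 h. Thapsigargin blocks the calcium pump of the endoplasmic reticulum (ER) and so causes ER stress, in which the kinase PERK phosphorylates eIF2α and initiation of translation falls in general. Lysates were separated on sucrose gradients into a polysome fraction (P) and a fraction of free and monosomal RNA (FM), and P was labelled with Cy3 and FM with Cy5 on the same two-colour array. Per the paper, RNA was labelled in the proportions recovered, with more in P in control and more in FM under stress. Signal changes of a single fraction therefore also carry this difference in input, to an extent that was not tested. Each condition had 1 array, hybridised with RNA pooled from 3 preparations, and the dyes were not swapped. There was therefore no replicate check of any value, no p-value could be given, and a dye effect of a probe could not be told apart from its P/FM ratio. Both arrays lay on 1 slide and were read in 1 scan.

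Collagens are made on ribosomes bound to the ER. The triple helix is built of Gly-X-Y repeats, prolines and lysines are hydroxylated in the ER, and the folded procollagen is trimmed and cross-linked outside the cell. Fibril-forming collagens such as types I, III and V give connective tissue its tensile strength, type IV collagen forms the network of basement membranes, and type VI collagen forms beaded filaments around cells. Fibroblasts are a main source of these proteins.

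The 60-base probe of Col5a1 below is shown because it reads the coding part of the triple helix and is set against a second, downstream probe of the same mRNA further on. It was 1 of only 3 member probes, among 87, with an open reading frame in which each Gly-X-Y repeat began with a glycine codon throughout; the others lay in Col5a3 and Col11a2. Capitals mark the glycine codons. The probe mapped to chr2:27842243-27844666 on the plus strand of mm9, a stretch longer than the probe, as when a probe joins exons.
Col5a1: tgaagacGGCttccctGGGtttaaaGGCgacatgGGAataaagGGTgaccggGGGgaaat

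Signals are spot brightness above local background, in arbitrary units, and the translation measure is log2 P/FM, so that 0 means equal signal in both channels. A is the mean of the log2 P and log2 FM signals, and a change is thapsigargin minus control on the log2 scale. A transcript was kept when A was above 4.5 on both arrays, which held for 10033 of 18743 coding transcripts. As a check of the cell type, 5 of 6 fibroblast markers were above this level (Fap was not), against 0 of 4 epithelial, 1 of 3 leukocyte (Cd68) and 0 of 3 endothelial markers. The stress genes Atf4, Ddit3 and Hspa5 had changes in log2 P/FM of 3.42, 2.58 and 1.36, and the fourth of the list, Hsp90b1, had one of -0.0040 with a change in A of 2.58. Over all mRNAs the median log2 P/FM was 0.34 in control and -0.29 with thapsigargin, and the median change was -0.71. The place of 0 depends on scaling, since the median change of all mRNAs was -0.12 after centring each array and 1.84 when the 10 spike-in probes were set to equal ratios. Under that spike-in scaling every member that was kept had a change above 0, so changes are also read against the median of all mRNAs. With no replicates, the yardstick of error was the SD between probes of 1 mRNA, whose median over 3438 mRNAs was 0.32 for the change in log2 P/FM. It says nothing of how cultures differ.

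Of the 56 transcripts, 30 passed the filter, 19 of 41 collagen transcripts and 11 of 15 processing transcripts. Of the 26 others, 18 had no signal well above background in either channel of either array, among them Leprel1, P4ha3 and both transcripts of Col25a1. Loxl2 had 1 signal well above background, FM in control. Loxl4 had 3, all but FM in control. Col11a1 was the only member below the filter with all 4 signals well above background. Its change was 1.08 ± 0.80 (SD, n = 2 probes). The probe above background changed by 1.64, and the other, at background, by 0.52. Among the 30 that passed, 29 had all 4 signals well above background in at least 1 probe, and the exception was Col18a1, whose FM signal in control was not. The values of Col3a1 and Col5a3 include 1 probe each with no signal well above background. For 17 of the 30 the value rests on 1 spot.

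The median collagen mRNA lost less polysome association than the median of all mRNAs. Their median log2 P/FM was -0.06 in control and -0.22 with thapsigargin, and the median of their changes was -0.45, which was 0.26 above that of all mRNAs. Among the 19 collagens, 4 were lower by 1 or more (Col1a1, Col2a1, Col6a2 and Col18a1) and 1 was higher by 1 or more (Col4a5). Over all mRNAs 40.8% were lower and 9.90% were higher by this amount. In control cells 9 of 19 collagens had a log2 P/FM of 0 or more, against 63.5% of all mRNAs, and with thapsigargin 8 of 19 did, against 37.4%. The median collagen thus stood at percentile 34.6 of all mRNAs in control and at percentile 53.3 under stress.

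**Figure D1:**
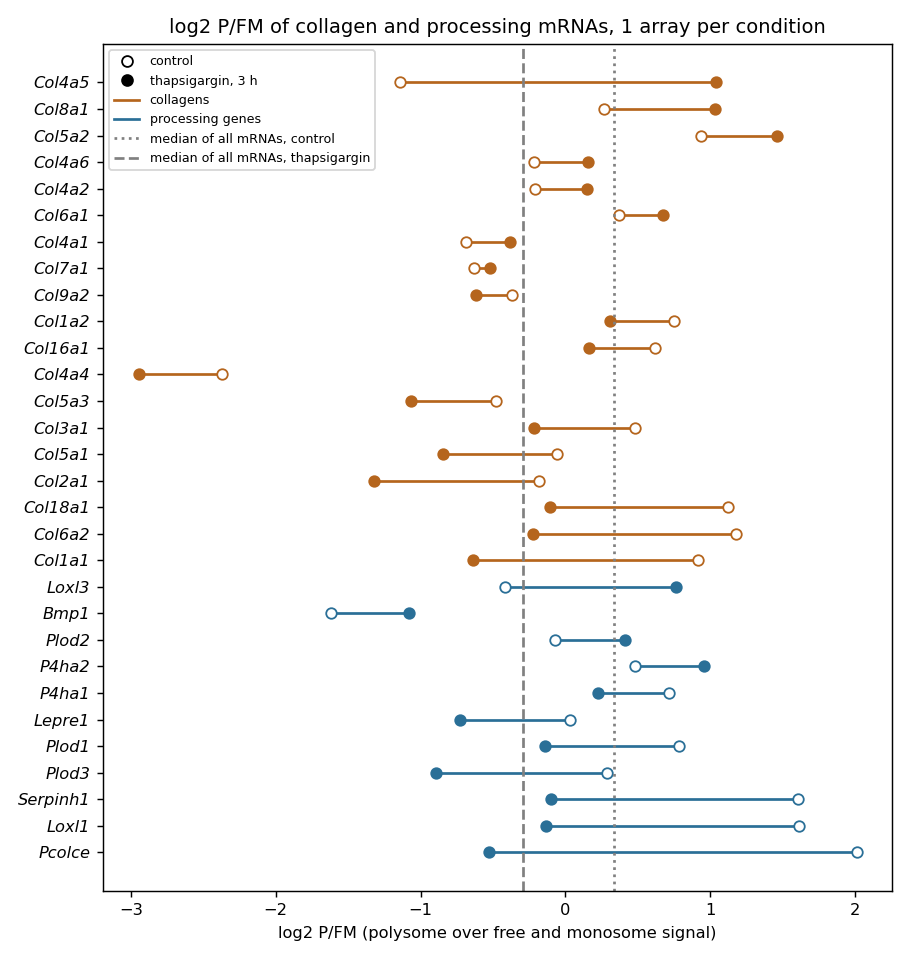
log2 P/FM in control (open circles) and with thapsigargin (filled circles) for the 30 member mRNAs that passed the filter, 1 array per condition, with collagens in brown, processing genes in blue, and vertical lines at the medians of all mRNAs. Col4a5 moved furthest to the right (-1.14 to 1.04) and Pcolce furthest to the left (2.01 to -0.53).

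The fibril-forming collagens had a median change of -0.70 over 7 chains and differed widely among themselves. Relative to all mRNAs this class median was 0.0099, and it lay between -0.53 (normexp) and 0.48 (A above 7) under the alternatives. Chains under the main filter, Col11a1 among them, entered none of these medians. Col1a1 and Col1a2 encode the 2 chains of type I collagen. For Col1a1 the P signal was 920 in control and 1335 with thapsigargin, and the FM signal was 489 and 2074. FM was thus 4.24-fold higher under stress and P 1.45-fold higher, and log2 P/FM went from 0.91 to -0.64, a change of -1.55 ± 0.83 (SD, n = 3 probes). For Col1a2 the P signal was 40835 and 60967 and the FM signal was 24241 and 49357, and log2 P/FM went from 0.75 to 0.30, a change of -0.45 on 1 spot. In the mean over probes both chains gained signal in both fractions, and each rose more in FM than in P. At the most upstream probe of Col1a1 the P signal fell, from 669 to 368. At its other probes P rose, from 231 to 734 and from 5048 to 8820. The direction for Col1a1 turned only with spike-in scaling, whereas that for Col1a2 turned also with processed signals, loess and centring.

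Among the other fibril-forming chains, Col5a2 stood apart from Col5a1, Col5a3 and Col3a1. Col5a2 had P signals of 291 in control and 745 with thapsigargin and FM signals of 152 and 271. Its log2 P/FM was 0.94 and then 1.46, a change of 0.52 on 1 spot, above 0 under all 14 alternatives. Centring and spike-in scaling raised all changes alike. Changes of filter, 1 value per gene symbol, kept outlier spots and the authors' log2 ratios gave the same 0.52 and were no check of Col5a2. Its partner chain Col5a1 had P signals of 245 and 371 and FM signals of 255 and 668, and its log2 P/FM changed by -0.79 ± 0.53 (SD, n = 2 probes), from -0.06 to -0.85. The upstream probe of Col5a1 changed by -1.16 and the downstream probe by -0.41. For Col5a3 and for Col3a1, the chain of type III collagen, 1 of 2 probes had no signal well above background. The mean over probes changed by -0.58 for Col5a3 and by -0.70 for Col3a1. At the probe above background Col5a3 changed by 0.022, with P signals of 66.9 and 129 and FM signals of 88.2 and 167. At the probe above background Col3a1 changed by -0.53, with P signals of 622 and 850 and FM signals of 442 and 874, so that both fractions gained signal. The means of Col3a1 and Col5a3 turned positive with spike-in scaling and normexp background, and also with processed signals (Col3a1) or centring (Col5a3). For Col2a1, the cartilage collagen, the change was -1.14 ± 0.68 (SD, n = 2 probes), with signals between 35.2 and 87.9.

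The network-forming collagens went the other way. Of 6 chains that passed, 5 had a positive change, with a median of 0.36 over the 6, which was 1.07 above the median of all mRNAs. The classes were read at different places. Type IV probes started at base 5102 or further, whereas the fibril-forming means include probes at bases 228, 350, 2735 and 2823. Upstream probes tended to have the lower change, as given below, and the part of probe position in this contrast was not tested. This class median was above 0 in all 14 alternatives, between 0.24 and 2.91, and above the median of all mRNAs in each of them. Col4a1 and Col4a2 encode the most common pair of type IV chains. Col4a1 had P signals of 137 in control and 302 with thapsigargin and FM signals of 220 and 394, and its log2 P/FM went from -0.69 to -0.38. Its 2 probes were at odds, with changes of -0.36 and 0.97. Col4a2 had P signals of 70.0 and 130 and FM signals of 80.8 and 117, and its 2 probes had changes of 0.28 and 0.42. Both fractions gained signal for this pair, and P gained more than FM in the mean over probes.

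Col4a5 had the largest positive change of all members. Its P signal was 22.1 in control and 74.0 with thapsigargin, while its FM signal was 48.7 and 36.0. P was 3.35-fold higher and FM 0.74 of its control level, and log2 P/FM went from -1.14 to 1.04, from percentile 8.10 to percentile 93.4 of all mRNAs. The change of 2.18 rests on 1 dim spot, and it lay between 1.11 and 4.73 under the 12 alternatives in which the transcript was kept. Col8a1, a short-chain network collagen, had P signals of 488 and 678 and FM signals of 405 and 332, and changed by 0.76 ± 0.28 (SD, n = 2 probes). Col4a6 changed by 0.37 ± 0.82 (SD, n = 3 probes), a spread larger than the change. Col4a4 was the exception, with a change of -0.57 and the lowest log2 P/FM of all members in both conditions, -2.37 and -2.95. The stretch listed for its only probe spans 29 of the 60 bases.

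The 2 chains of type VI collagen that were measured differed. Col6a1 had P signals of 269 in control and 633 with thapsigargin and FM signals of 208 and 396, and log2 P/FM went from 0.37 to 0.68. Col6a2 had P signals of 150 and 240 and FM signals of 66.6 and 280, and log2 P/FM went from 1.18 to -0.22. The changes were 0.31 and -1.40 on 1 spot each, a gap of 1.70. The SD between probes of the 11 collagens with several probes was 0.61 in the median and 0.94 at most. The order of these chains was the same in every alternative that kept both, with a gap between 0.79 (normexp) and 2.16, and Col6a2 turned positive only with spike-in scaling, at 1.15. Both gained A by more than 1, by 1.08 and 1.38.

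Among the other classes 4 chains passed, with changes of 0.11 (Col7a1, of anchoring fibrils), -0.25 (Col9a2) and -0.46 (Col16a1, fibril-associated as Col9a2 is) and -1.23 (Col18a1, a basement membrane collagen whose FM signal in control was not well above background). No transmembrane collagen passed.

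The processing genes had a median change close to that of all mRNAs. Their median log2 P/FM was 0.48 in control and -0.13 with thapsigargin, and the median of their changes was -0.76, or -0.05 relative to that of all mRNAs. Of 11 that passed, 4 were lower by 1 or more (Pcolce, Loxl1, Serpinh1 and Plod3) and 1 was higher (Loxl3), close to the 40.8% and 9.90% of all mRNAs. The 3 with the largest falls had the highest control ratios, between percentiles 91.4 and 96.8 of all mRNAs. The control ratio is subtracted in the change, so its error on 1 spot enters both values and this pairing is no separate result.

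Serpinh1, the ER chaperone that binds folded procollagen, had P signals of 7271 in control and 7593 with thapsigargin, and its FM signal was 2393 and 8134. P was thus nearly level while FM was 3.40-fold higher, and log2 P/FM went from 1.60 to -0.10. The change of -1.70 was not lower than that of other mRNAs of similar signal, whose median was -1.71, and it turned to 0.026 with processed signals and to 0.85 with spike-in scaling. Pcolce, the secreted enhancer of C-propeptide removal, had P signals of 36734 and 21589 and FM signals of 9122 and 31176. It went from a log2 P/FM of 2.01 to -0.53, a change of -2.54 that was the lowest of the members that passed. This change stood at -0.55 relative to the median of its signal band, and reached 0.010 with spike-in scaling. Bmp1, the C-proteinase that Pcolce enhances, went the other way, with P signals of 151 and 228 and FM signals of 465 and 482. Its log2 P/FM was low in both conditions, -1.62 and -1.08, and the change of 0.54 rests on 1 spot. This change was above 0 in all 14 alternatives, with the same limit as for Col5a2. With normexp, however, it was -0.13 relative to the median of all mRNAs.

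The hydroxylases did not move as 1 group. P4ha1 and P4ha2, catalytic subunits of the prolyl 4-hydroxylase that stabilises the triple helix, had rises in A of 1.40, the largest of all members, and 1.19. For P4ha2 the P signal was 862 in control and 2315 with thapsigargin and the FM signal was 618 and 1195. Its log2 P/FM change was 0.48 on 1 spot, above 0 in all 14 alternatives, with the same limit as for Col5a2. For P4ha1 the P signal was 83.6 and 186 and the FM signal was 51.0 and 159, and its log2 P/FM change was -0.49 ± 0.28 (SD, n = 2 probes), positive with normexp, centring and spike-in scaling. Among the lysyl hydroxylases, Plod1 changed by -0.93, Plod3 by -1.18 ± 0.13 (SD, n = 2 probes) and Plod2 by 0.48. Plod2, which hydroxylates the telopeptide lysines used in cross-links, had P signals of 65.0 and 95.6 against FM signals of 68.2 and 72.1. Plod1 and Plod3 had P signals of 109 and 396 in control and 132 and 334 with thapsigargin, and FM signals of 63.0 and 325 and then 146 and 621. Plod1 turned positive with normexp and spike-in scaling, Plod3 only with spike-in scaling. Lepre1, a prolyl 3-hydroxylase now named P3h1, had P signals of 41.0 and 48.0 and FM signals of 40.1 and 79.5 and changed by -0.76, positive with normexp and spike-in scaling.

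Of the lysyl oxidases, which start cross-linking outside the cell, Loxl1 and Loxl3 passed. Loxl1 had P signals of 5980 in control and 2930 with thapsigargin and FM signals of 1952 and 3208, a change of -1.75 that matched the median of -1.71 in its signal band and turned positive only with spike-in scaling. Loxl3 had P signals of 30.7 and 64.4 and FM signals of 41.0 and 38.0, and its change of 1.18 rests on 1 dim spot.

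**Figure D2:**
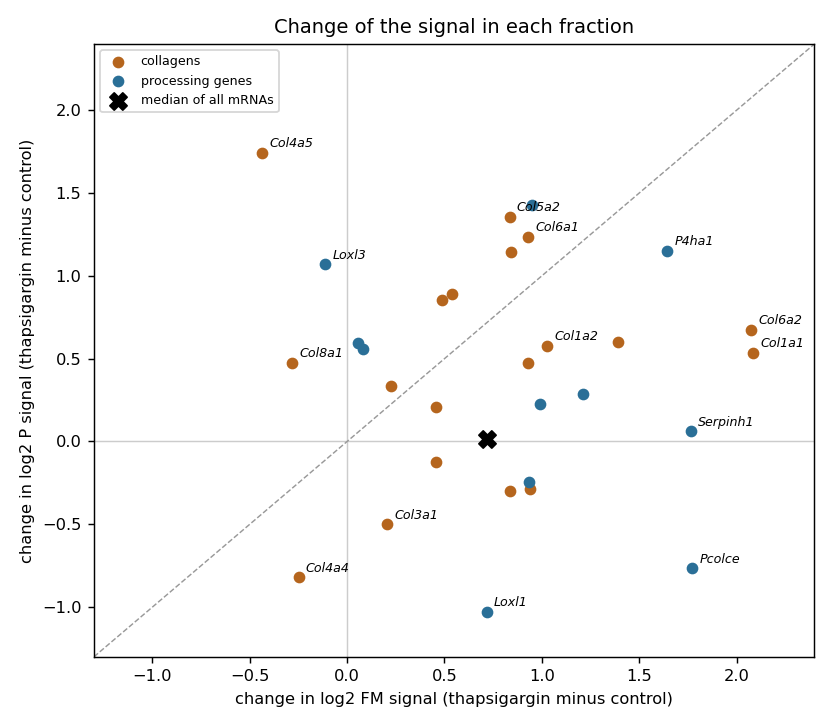
Change in log2 P signal (vertical) against change in log2 FM signal (horizontal), thapsigargin minus control, for the 19 collagens and 11 processing genes that passed; the dashed line marks equal change and the cross the median of all mRNAs (0.72, 0.02). Most members lie to the right of 0 and above it, Col1a1 and Col6a2 far below the dashed line, and Col4a5 and Loxl3 above it with FM below 0.

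Taken singly, the fractions differed as follows. The P signal was higher with thapsigargin for 14 of 19 collagens and 8 of 11 processing genes, against 50.7% of all mRNAs. The FM signal was higher for 16 of 19 and 10 of 11, against 86.6%. The median changes in P were 0.54 for collagens, 0.28 for processing genes and 0.02 for all mRNAs, and those in FM were 0.83, 0.95 and 0.72. Median changes in A were 0.67, 0.50 and 0.37. With normexp background the collagen medians relative to all mRNAs were 0.019 for P, with 21 of 41 collagens above, and -0.11 for A. In 4 of 19 collagens (Col6a2, Col1a1, Col5a2 and Col6a1) and 2 of 11 processing genes (P4ha1 and P4ha2) A was higher by 1 or more, against 11.7% of all mRNAs, and in none was it lower by 1 or more, against 0.698%. Col5a1 came next, at 1.00 when rounded. The amount of RNA labelled was set to the same total on each array, so that A does not follow the amount of an mRNA per cell. It follows the share in the labelled RNA only in part. As a mean of log2 signals, A also moves with the balance of P and FM.

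The collagens and processing genes could be set side by side but not tested. The difference of their median changes was 0.31, and their ranges overlapped, from -1.55 to 2.18 for collagens and from -2.54 to 1.18 for processing genes. The 3 processing genes Pcolce, Loxl1 and Serpinh1 lay below every collagen, and Col4a5 lay above every processing gene. Collagens were above the median change of all mRNAs in 14 of 19 cases and processing genes in 5 of 11. Signal strength moved with the change over all mRNAs and the processing genes but hardly over the collagens, and its part in this difference was not tested: mean A and the change had a Pearson r of -0.12 and a Spearman rho of -0.04 over the 19 collagens, -0.72 and -0.75 over the 11 processing genes, and -0.39 and -0.39 over all 10033 mRNAs, where all points come from the same 2 arrays. Against the median of all mRNAs in the same band of mean A, the median collagen stood at 0.57 and the median processing gene at -0.03. Col1a2, in the band of strongest signal, was 1.54 above a band median of -1.99, and P4ha2 was 1.73 above its band median of -1.26.

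**Figure D3:**
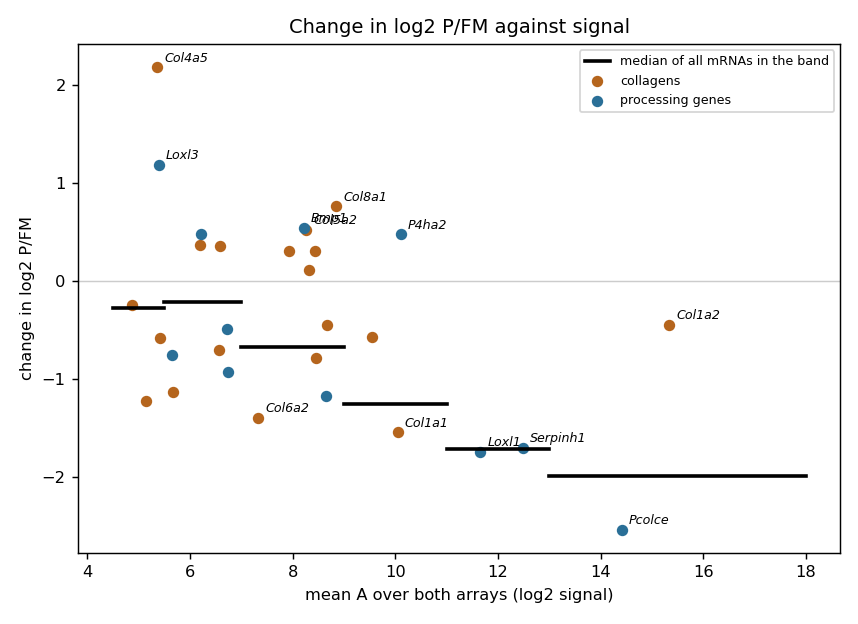
Change in log2 P/FM (vertical) against mean A over both arrays (horizontal, log2 signal) for the members that passed, with black bars at the median of all mRNAs in each of 6 bands of mean A. The band medians go from -0.28 at the weakest to -1.99 at the strongest signals, Serpinh1 and Loxl1 lie on their band median, and Col1a2 and P4ha2 lie above theirs.

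In the scheme used to sort mRNAs here, an mRNA was sensitive when its change was -0.8 or lower, resistant when log2 P/FM was 0.8 or more on both arrays, and inducible when it began at 0 or below and rose by 1 or more. Sensitive members numbered 4 of 19 collagens (Col1a1, Col2a1, Col6a2 and Col18a1) and 5 of 11 processing genes (Pcolce, Loxl1, Serpinh1, Plod3 and Plod1), against 47.0% of all mRNAs. Col5a1, at -0.79, lay just outside. Among members that passed, the only resistant one was Col5a2, against 3.00% of all mRNAs, and the inducible ones were Col4a5 and Loxl3, against 8.86%. Col11a1, under the filter but with all 4 signals well above background, also met the inducible cut.

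The part of the mRNA that a probe reads went with the value obtained. In 13 of the members that passed, 2 or 3 probes read the same mRNA, and in 12 of them the most upstream probe had the lower change in log2 P/FM. The 12 include Col2a1, whose probes overlap and start only 20 bases apart, yet changed by -1.62 and -0.66. Its gap is thus not one between parts of the mRNA. Over all 4128 mRNAs that passed and had such probes this held for 67.1%, and for 81.7% of the 1320 with probes 2000 bases or more apart. Some upstream probes were at background, so the count was also made over probes well above background in all 4 signals, a choice made after seeing the data. It then held for 9 of 9 members, Col2a1 again among them, against 65.8% of all mRNAs. For probes 2000 bases or more apart it held for 4 of 4 against 84.6%, so that most mRNAs of the array had it too. The triple-helix probe of Col5a1 printed above changed by -1.16 and the probe 3440 bases downstream by -0.41. In Col1a1 the 3 probes, starting at bases 228, 3909 and 4602 of the transcript, changed by -2.50, -1.19 and -0.96. The last of these stood in 10 spots with an SD of 0.03 between them, so that the spread of Col1a1 lay between probes and not between spots, and by that probe alone Col1a1 would not have reached -1. Col16a1 changed by -0.89 at its upstream and -0.03 at its downstream probe. Col18a1 was the exception among the 13, with -0.999 upstream and -1.45 downstream over 245 bases, and its FM signal in control was not well above background at either probe.

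**Figure D4:**
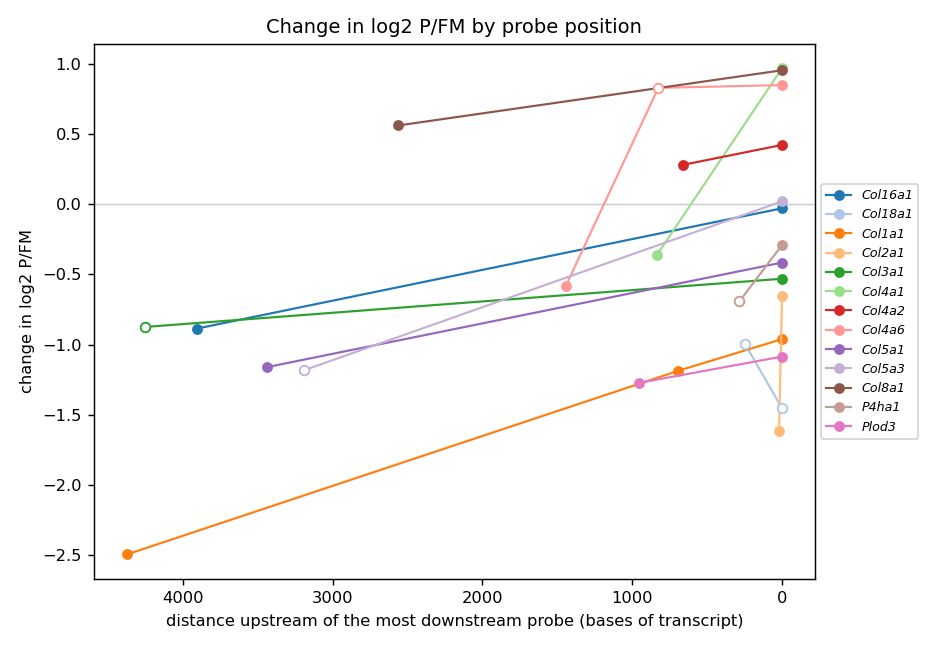
Change in log2 P/FM (vertical) of each probe against its distance upstream of the most downstream probe of the same mRNA (horizontal, bases of transcript, 5′ end to the left), for the 13 members with several probes that passed; open circles mark probes with any signal not well above background. In all but Col18a1 the leftmost point lies below the rightmost, and Col1a1 goes from -2.50 to -0.96.

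The count depended on the background correction. Without background subtraction 10 of 13 members had the lower change upstream, against 62.1% of all mRNAs, and with normexp background 7 of 13 did, against 54.4%. For probes 2000 bases or more apart normexp gave 3 of 6 members, against 69.0%. As reported, the median of upstream minus downstream probe over the 13 members was -0.70 for the change in P and -0.18 for that in FM; without background subtraction these were -0.49 and -0.36, and with normexp -1.07 and -1.20. In 11 of 13 members the upstream probe was also the weaker one, and the part of signal strength in this pattern was not tested.

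Genes of the pathway outside the naming rule were taken from a list of 22 for collagen maturation, export and turnover. Of these 16 passed, 8 were lower by 1 or more and 0 higher, against 40.8% and 9.90% of all mRNAs, and the median change was -0.87, or -0.16 relative to all mRNAs. The count lower was thus near that of all mRNAs. The 8 were Crtap and Leprel2 of the prolyl 3-hydroxylation machinery (-2.42 and -1.86), P4hb, the second subunit of prolyl 4-hydroxylase (-2.32), the prolyl isomerases Ppib and Fkbp10 (-2.08 and -1.68), the galactosyltransferase Glt25d1 (-1.86) and the N-proteinases Adamts2 and Adamts14 (-2.40 and -1.20). The probes of Adamts2 were at odds, with an SD of 1.5. Fkbp14, another prolyl isomerase of the ER, changed by 0.89. Export and turnover genes stayed between -0.54 (Klhl12) and 0.52 (Sec24d), the proteases Mmp2 and Mmp14 among them at -0.43 and -0.22. The count of 8 was 4 after loess, 5 with processed signals and 0 with spike-in scaling. It was 7 of 12 with A above 5.5 and 7 of 10 with A above 7, where the medians relative to all mRNAs were -0.94 and -0.76. That relative median was 0.19 with processed signals and 0.025 without background subtraction, so it depended on the setting.

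Other matrix proteins, also 22 by name, did not follow the type I collagen chains. Of 15 transcripts that passed, 5 were higher by 1 or more and 3 lower, against 9.90% and 40.8% of all mRNAs, and the median change was 0.26, above 0 in all 14 alternatives and 0.14 with 1 value per gene symbol, where 4 were higher. The higher ones were Nid1, which links basement membrane networks (2.84), Fbn1 of microfibrils (2.45), the proteoglycan Vcan (1.97; its other transcript, under the filter, had -0.74), Thbs1 (1.63) and Postn (1.40). The lower ones were Bgn (-1.81), Sparc (-1.35) and Dcn (-1.04). With loess none was lower by 1 or more.

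Relative to all mRNAs, the order of the groups was the same in every setting tried. Centring and spike-in scaling shift all ratios of an array alike, so they could not change this order or any gap between members. The collagen median lay above the median of all mRNAs by 0.09 to 0.93 and the processing gene median lay at -0.34 to -0.03 relative to it. The size of the gap moved most when weak signals were left out: with A above 7, 9 of 10 collagens and 2 of 6 processing genes were above the median of all mRNAs.

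**Figure D5:**
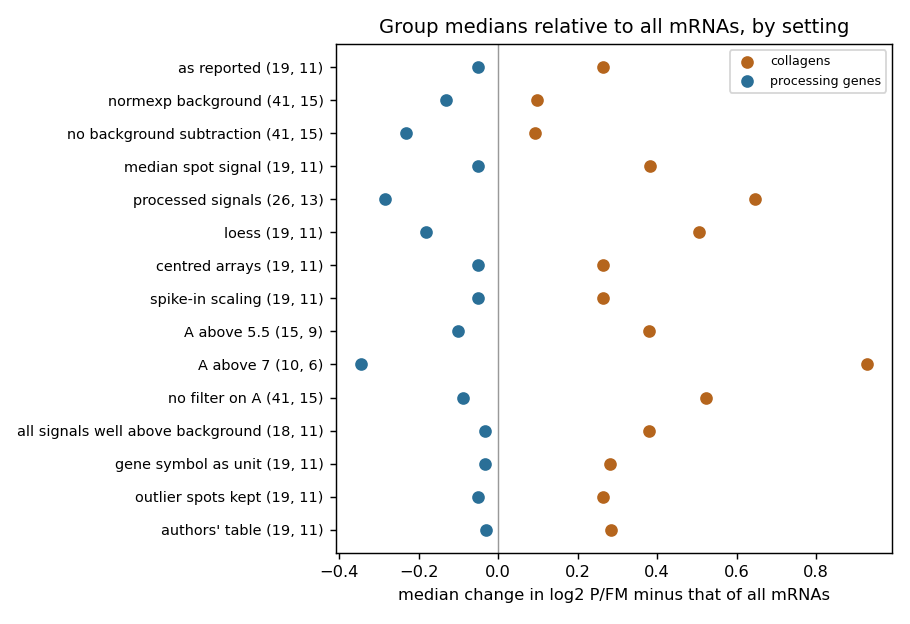
Median change in log2 P/FM of collagens (brown) and processing genes (blue) minus that of all mRNAs (horizontal), as reported and under 14 alternatives (vertical), with the numbers of collagens and processing genes measured in brackets. All brown points lie right of 0, from 0.09 to 0.93, and all blue points left of it.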

How the data were processed

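RNA of both fractions was hybridised to 2 Agilent two-colour arrays, 1 per condition, at 300 ng of total RNA per array per the labels. The deposited intensity values are spot and local background brightness from Feature Extraction 10.7.1.1, annotated on mm9 per the file headers. The authors also deposited log2 ratios of Cy3 over Cy5, background corrected and averaged per transcript but not normalised, used here as an alternative. The flag, control class and probe start columns (other columns per the file headers) served to choose spots.

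Background was subtracted (values below 0.5 set to 0.5) with no normalisation, spots with an outlier flag on 1 or both arrays were dropped (3 of the members'), and log2 values were averaged over spots, then probes, per accession, after checks on simulated data. limma 3.58.1 in R 4.3.3 gave normexp (offset 50) and loess values; the rest ran in Python. Of the 56 transcripts, 55 matched RefSeq names of GRCm38.p6. Between 42.5% and 46.3% of spots were well above background and none was saturated, and the number of arrays limits precision.

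Named genes were the main fibrillar, type IV and type VI chains and all processing genes, plus the 3 lowest and 3 highest changes, 3 highest changes in A and 3 highest control A; others were named after their values were seen. Members, classes and lists were chosen with earlier results of these data known. No columns were left unused for want of a sample.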

Additional observations from a re-analysis of the deposited data

How the results depend on the processing

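The sign of the group medians depended on background correction and scaling, and the cause was not tested beyond what each setting does by construction. With normexp background, which kept all 56 transcripts, the collagen and processing gene medians were -0.56 and -0.48 for log2 P/FM in control, 0.43 and 0.20 for its change and -1.59 and -0.71 for the change in A, and 0 collagens were lower by 1 or more. Without background subtraction the processing gene median in control was -0.056, the median changes in log2 P/FM were -0.075 (collagens) and -0.40 (processing genes), those in A were 0.11 and 0.26, and 1 collagen was lower by 1 or more. With processed signals the collagen median change was 0.34, the difference between the groups 0.93, the median changes in A 0.29 and 0.021, and Serpinh1 changed by 0.026. With loess the median changes were 0.35 and -0.33, their difference 0.69, and 0 processing genes were lower by 1 or more. After centring, the control medians were -0.37 and 0.17, the median changes 0.15 and -0.17, those in A 0.27 and 0.10, and 0 collagens were lower by 1 or more. With spike-in scaling the control medians were 0.35 and 0.88, the median changes 2.10 and 1.79, and 0 collagens and 0 processing genes were lower by 1 or more, while Col1a1, Col6a2, Loxl1, Pcolce, Plod3 and Serpinh1 changed by 1.00, 1.15, 0.80, 0.010, 1.37 and 0.85.

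With A above 5.5 the collagen median in control was 0.27. With A above 7 the control medians were 0.32 and 1.04, the processing gene median change -1.44, the difference between the groups 1.27, the collagen median change in A 0.90, and 1 collagen was lower by 1 or more. Without a filter on A the collagen median change in A was 0.33 and 9 collagens were lower by 1 or more. Median spot signal, members with all signals well above background, 1 value per gene symbol and outlier spots kept moved none of the 9 group results, and the authors' log2 ratios none of the 7 without A, by more than the SD between probes or, for counts, by over 1.5 times. The difference between the groups was above 0 in all 14 alternatives. Centring and spike-in scaling could not change it, because they shift all ratios of an array alike. With 1 value per gene symbol, outlier spots kept or the authors' log2 ratios it stayed at 0.31. No paired analysis was possible because each condition had 1 array. Signal over background limits the weakest members, and 26 transcripts were under the filter on A.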
